A study of Mus musculus with 16 samples.

Results

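The comparison described here set livers of refed male mice lacking hepatic Cpt1a against livers of refed control mice. It used 8 of the 16 RNA-seq libraries of the series, 4 labelled CPT1a LKO (liver knockout) and 4 labelled Control, and all 14488 genes that passed a filter on low counts. All mice had been fed a high-fat diet (HFD) for 12 weeks. The refed mice had been fasted for 16 h and then given food again for 6 h before necropsy, whereas the other 8 libraries came from mice necropsied at the end of the 16 h fast. The design text calls the control mice WT. The Cre line or other means of deletion, the deleted exons, the age of the mice and any litter or cage structure were not given in the sources used here. The labels do not say in so many words that each library came from its own mouse, so p-values measure the spread between these libraries. The title of the series names plasma cholesterol as its subject, and no plasma value was analysed here.

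CPT1a is the liver form of carnitine palmitoyltransferase 1, which sits in the outer membrane of mitochondria and couples long-chain fatty acids to carnitine so that they can enter for β-oxidation. In the fasted liver this entry feeds oxidation and ketone body production. On refeeding, insulin rises, malonyl-CoA inhibits CPT1, and the SREBP transcription factors drive the genes of fatty acid and cholesterol synthesis.

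The control libraries are S48, S49, S50 and S51, the LKO libraries are S52, S53, S54 and S55, and values per library follow that order. Levels are in CPM, the count per 1000000 counts of a library's TMM-scaled total. Differences are log2 fold changes of LKO over control from edgeR's quasi-likelihood test, each with its standard error (SE). A gene was called at a Benjamini-Hochberg adjusted p under 0.05 over all genes tested. The refed libraries held 14721601 to 24618230 counts. Log2 CPM correlated across genes at 0.968 to 0.983 between pairs of refed control libraries and at 0.98 to 0.986 between pairs of refed LKO libraries. Genes are not independent replicates, and these values only describe the libraries. The summed level of 12 hepatocyte markers was 85244 to 107406 CPM in controls and 76407 to 88430 CPM in LKO. None of the 12 was called, 10 were negative, and their median log2 fold change was -0.20, with 4 at an unadjusted p under 0.05.

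In refed LKO livers most of the DNA replication and immunoglobulin genes tested were called higher, as were some genes of peroxisomal and mitochondrial fatty acid oxidation and of fatty acid elongation and desaturation. Some cytochromes P450, ER chaperones and single genes of glucose and fructose use were called lower. Of the 14488 genes, 526 were called (3.63%), 330 of them higher in LKO (2.28%) and 196 lower (1.35%). The median size of the difference among called genes was 0.76 on the log2 scale, and the median log2 fold change of all genes was -0.01. A change of at least 2-fold was fitted for 151 of the genes called higher and 58 of those called lower. The 4 LKO values lay entirely above or entirely below the 4 control values for 491 of the called genes, and for 1700 of all genes tested (11.7%), 971 of them with LKO above (6.7%) and 729 with LKO below (5.03%). The count of calls moved with single libraries. It was 190 without S48, 303 without S50, 294 without S53, 294 without S54 and 224 without S55, but 518 without S51, 442 without S52 and 408 without S49. Of the 526, 219 (41.6%) were also called in the fasted livers, where 1772 genes were called (12.2%), 833 higher (5.75%) and 939 lower (6.48%), and the 219 made up 12.4% of the fasted calls.

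**Figure D1:**
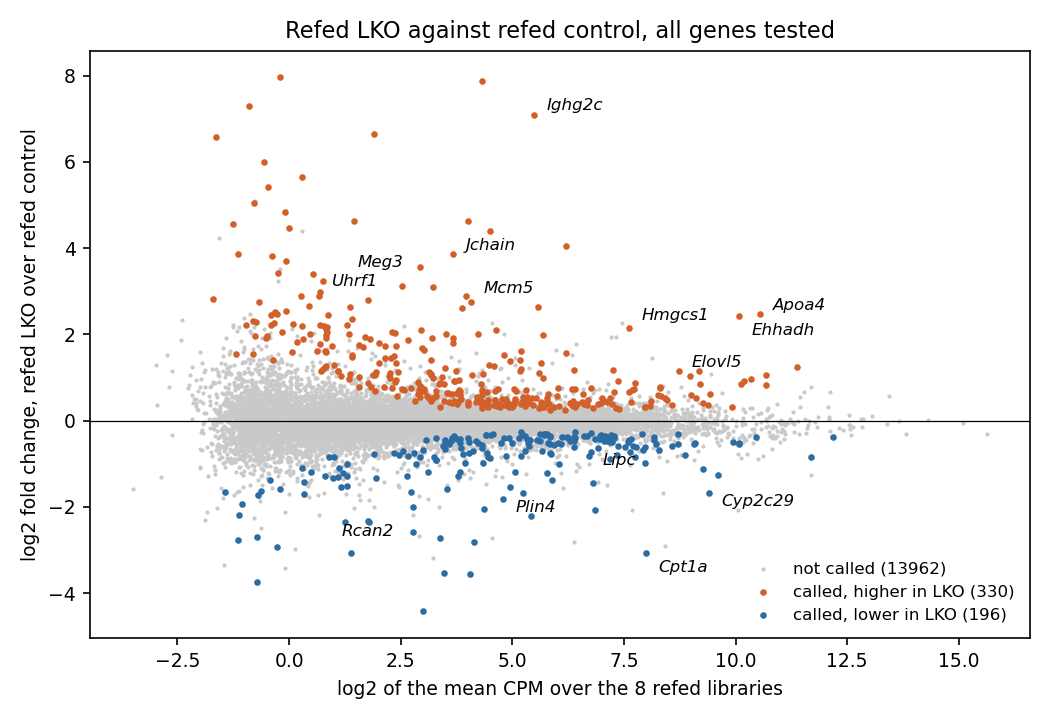
Each point is 1 of the 14488 genes tested, with the log2 of its mean CPM over the 8 refed libraries on the x axis and its log2 fold change of refed LKO over refed control on the y axis. The 330 genes called higher are orange, the 196 called lower are blue, and the genes labelled are described in the text.

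The targeted gene was read first. Cpt1a (ENSMUSG00000024900, chromosome 19, 3372334 to 3435733, mm39) read 371, 319, 517 and 620 CPM in the control libraries and 39.9, 75.2, 59.9 and 41.9 CPM in the LKO libraries. The groups did not overlap, with all 4 LKO livers far below the lowest control. The mean was 457 ± 137 CPM (SD, n = 4) in controls and 54.2 ± 16.6 CPM (SD, n = 4) in LKO, a log2 fold change of -3.08 (SE 0.24, adjusted p = 8.23e-06). An exact two-sided permutation test of the 4 against 4 CPM values gave p = 0.0286, the smallest it can give. The authors' deposited table gives -3.07 for the same gene. The count covers the whole gene, so the remaining 54.2 CPM cannot be divided between transcripts that lack the deleted part and transcripts from cells that kept it. Of the other forms of the enzyme, Cpt1b was under the filter and Cpt1c was not called (0.26, SE 0.47, adjusted p = 0.823). Cpt2, the partner enzyme of the inner mitochondrial membrane, read 230 ± 9.1 CPM in controls and 232 ± 5.35 CPM in LKO (n = 4 each, 0.01, SE 0.09, adjusted p = 0.965).

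Some genes of fatty acid oxidation were called higher in refed LKO livers, and most did not pass the test. In a list of 18 genes of mitochondrial fatty acid oxidation, 6 were called higher and 0 lower, with a median log2 fold change of 0.24 and 17 members above 0. Ehhadh (chromosome 16, 21580037 to 21606557), the peroxisomal bifunctional enzyme of β-oxidation, read 291, 259, 441 and 367 CPM in controls and 1153, 2702, 1496 and 1923 CPM in LKO. Every LKO library was above every control (2.42, SE 0.40, adjusted p = 0.00376). The other differences in these lists were smaller. Hadhb, the β subunit of the mitochondrial trifunctional protein, read 231, 223, 225 and 250 CPM against 337, 438, 380 and 435 CPM (0.78, SE 0.13, adjusted p = 0.00376). Acadm and Acadl, the medium- and long-chain acyl-CoA dehydrogenases, rose by 0.61 and 0.53 on the log2 scale, and Eci1, an enoyl-CoA isomerase, rose by 0.58. These 4 were called in each of the 8 fits that left out 1 refed library. Hadha, the α subunit of the same trifunctional protein, was called at 0.53 (SE 0.12, adjusted p = 0.0280), and its call was lost without S48, S49, S50, S53, S54 or S55, with an adjusted p of up to 0.0883 (without S53).

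Of 13 peroxisomal oxidation genes, 4 were called higher and 0 lower, with a median of 0.42, and 2 were negative (the lowest at -0.39). They were Ehhadh, Hsd17b4, Acot8 and Abcd2. Hsd17b4, the second bifunctional enzyme, had a log2 fold change of 0.41 and lost its call without S48, S49, S50, S53, S54 or S55 (adjusted p up to 0.0896, without S48). Abcd2, a transporter of very long-chain acyl-CoA, had 1.27 and lost its call without S48 (0.0611) or S55 (0.0656), and Acot8, a thioesterase, had 0.50 and lost it without S48 (0.0675) or S53 (0.061). Among 6 genes of ketone body synthesis and export, 2 were called higher, Bdh1 among them. Bdh1, which reduces acetoacetate to β-hydroxybutyrate, read 420, 344, 468 and 445 CPM against 649, 842, 725 and 792 CPM (0.84, SE 0.12, adjusted p = 0.00116).

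PPARA is the fatty-acid-sensing nuclear receptor that controls many of these genes. Of 23 tested PPARA targets, 6 were called higher and 0 lower, with a median of 0.54. Aldh3a2, a fatty aldehyde dehydrogenase, read 794, 554, 896 and 1003 CPM against 1350, 1547, 1720 and 1511 CPM (0.92, SE 0.17, adjusted p = 0.00819). Cyp4a10, an ω-hydroxylase of fatty acids, read 922, 1118, 1198 and 993 CPM against 1637, 2790, 2253 and 2197 CPM (1.07, SE 0.21, adjusted p = 0.0114). Both sets of 4 LKO values lay above all controls. Fabp2, an intracellular fatty acid binding protein, rose from 152 ± 7.38 to 278 ± 31.9 CPM (n = 4 each) with a log2 fold change of 0.87 (adjusted p = 0.000223). Its p was 1 of the 5 smallest among called protein-coding genes of at least 1 CPM that were higher in LKO. Cyp4a14 (1.25, adjusted p = 0.0323) lost its call without S48, S51, S53, S54 or S55 (adjusted p up to 0.102, without S48). Cyp4a10, Cyp4a14 and their neighbours are near-identical copies, and how the deposited counts split reads between them is uncertain. In the fasted livers the same list held 20 genes called higher (5.75% of all genes), with a median of 1.04. The difference between the states was called for 1 of the 23, Acot3 (-1.01 refed), a thioesterase with near-identical neighbours. Fgf21, a hormone under PPARA control, read 3.9, 1.91, 14.3 and 10.3 CPM in controls and 10.9, 32.8, 25.5 and 12.3 CPM in LKO. Its groups overlapped, and it was not called (1.39, SE 0.60, adjusted p = 0.218).

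Of 11 fatty acid elongases and desaturases, 5 were called higher and 0 lower, with a median of 0.67. The other 6 did not pass, and 4 members were negative (down to -1.49). The summed level of the list overlapped between the groups, at 1906 to 4814 CPM in controls and 4137 to 4703 CPM in LKO. Elovl5 (chromosome 9, 77824646 to 77891801), which elongates polyunsaturated fatty acids, read 216, 264, 276 and 294 CPM in controls and 555, 578, 624 and 589 CPM in LKO. The lowest LKO library was well above the highest control (1.16, SE 0.12, adjusted p = 0.000194). Elovl2, the elongase of longer polyunsaturated fatty acids, read 383, 342, 407 and 300 CPM against 649, 829, 759 and 943 CPM (1.15, SE 0.21, adjusted p = 0.00819). Fads2, the Δ6-desaturase, read 789, 1074, 754 and 866 CPM against 1228, 1923, 1929 and 1784 CPM (0.98, SE 0.19, adjusted p = 0.0114). The other called members were Elovl1 (0.55, adjusted p = 0.0436), which kept its call only without S51 among the fits that left out a library, and Fads3 (0.94, adjusted p = 0.0335), which lost it without S48, S50, S51, S54 or S55. Scd1, the stearoyl-CoA desaturase, spread widely within both groups. It read 1229, 2141, 143 and 1898 CPM in controls and 1624, 744, 596 and 194 CPM in LKO and was not called (-0.78, SE 0.70, adjusted p = 0.607).

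Of 14 genes of fatty acid synthesis and its regulators, 0 were called higher and 2 lower, with a median of -0.15. Mlxipl, which encodes the glucose-responsive factor ChREBP, read 220, 207, 261 and 238 CPM against 170, 186, 168 and 168 CPM (-0.42, SE 0.08, adjusted p = 0.0115). Fasn, fatty acid synthase, read 218, 406, 105 and 75.1 CPM in controls and 196, 312, 195 and 310 CPM in LKO, with full overlap (0.33, SE 0.37, adjusted p = 0.694). Srebf1, the regulator of fatty acid synthesis genes, read 560, 422, 302 and 213 CPM against 373, 168, 183 and 203 CPM (-0.69, SE 0.27, adjusted p = 0.169). Without single libraries Srebf1 ran from -1.02 to -0.43, and it was called lower without S52 (adjusted p = 0.0325). In 16 genes of glucose and fructose use, 4 were called lower and 0 higher, and the summed level overlapped between the groups (6749 to 10426 CPM in controls, 6994 to 7961 CPM in LKO). Gckr, a regulatory protein of hepatic glucose use, read 186, 221, 167 and 177 CPM against 124, 83.5, 111 and 88.3 CPM (-0.88, SE 0.17, adjusted p = 0.00825). The other called members were Mlxipl, Pklr and Khk. Pklr, liver pyruvate kinase (-0.72), lost its call without S48, S49, S52, S53, S54 or S55 (adjusted p up to 0.111, without S49). Khk, which phosphorylates fructose (-0.79), lost it without S48, S49, S50, S53, S54 or S55 (adjusted p up to 0.131, without S55). Ldha, lactate dehydrogenase A, was on no list and was among the 5 largest gains in CPM of called protein-coding genes of at least 1 CPM. It read 1195, 1113, 1258 and 1160 CPM against 1889, 2109, 1901 and 2436 CPM (0.82, SE 0.10, adjusted p = 0.000497).

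**Figure D2:**
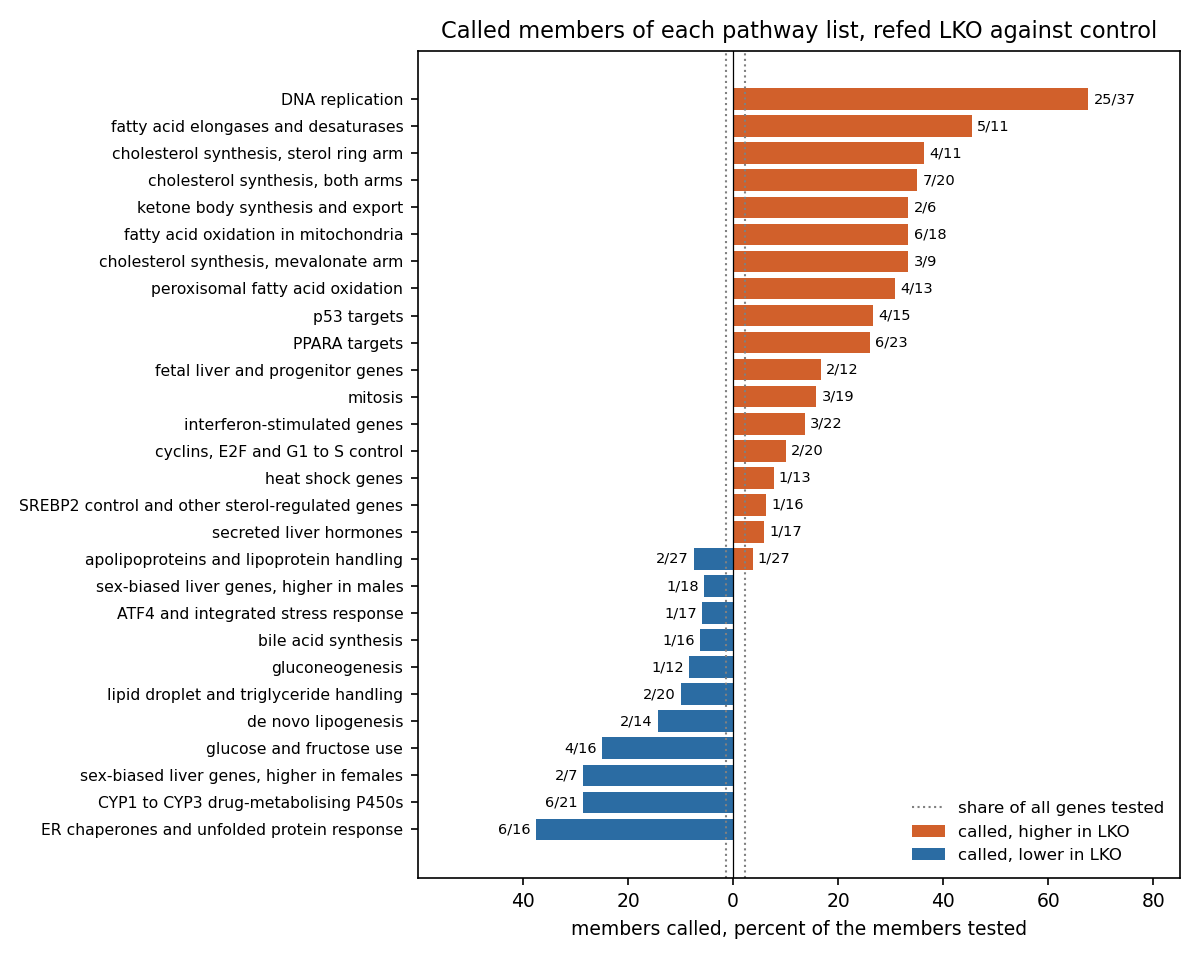
Bars give the percent of each list's tested members called higher (orange, to the right) or lower (blue, to the left) in refed LKO livers, with the count of called over tested members at the end of each bar, for the pathway lists with at least 1 call. Dotted lines mark the shares of all genes called higher (2.28%) and lower (1.35%); among these lists DNA replication has the longest bar to the right and ER chaperones the longest to the left.

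Among genes of lipid storage and lipoproteins, single members moved and most did not. Of 20 genes of lipid droplets and triglyceride handling, 2 were called lower and 0 higher. Plin4, a lipid droplet coat protein, read 36.5, 31.4, 36.2 and 69.9 CPM in controls and 12, 9.09, 17.1 and 10.9 CPM in LKO, without overlap (-1.83, SE 0.36, adjusted p = 0.0109). Summed adipocyte markers were also lower in LKO, at 3914 to 5452 CPM in controls and 1539 to 2440 CPM in LKO, and their part in this fall was not tested. Most of that sum was Car3, which is also made in liver. The defining adipocyte marker Adipoq had a mean of 0 CPM in controls and 0.0164 CPM in LKO. Plin2, the main droplet coat protein of hepatocytes, overlapped between the groups, with 537, 366, 688 and 1057 CPM against 705, 835, 1047 and 835 CPM (0.37, SE 0.24, adjusted p = 0.451). Of 27 genes of apolipoproteins and lipoprotein handling, 1 was called higher and 2 lower. Apoa4 (chromosome 9, 46151994 to 46154757), an apolipoprotein of chylomicrons, VLDL and HDL, read 303, 247, 330 and 949 CPM in controls and 1911, 2940, 2733 and 2606 CPM in LKO. S51 was the highest control and still read below every LKO library (2.48, SE 0.37, adjusted p = 0.00181). Lipc (chromosome 9, 70705410 to 70859508), hepatic lipase, read 129, 149, 130 and 129 CPM against 84.5, 93.6, 76.3 and 70.4 CPM, again without overlap (-0.73, SE 0.12, adjusted p = 0.00276). Vldlr, a receptor for triglyceride-rich lipoproteins, was called lower (-1.52, SE 0.33, adjusted p = 0.0191) and lost its call without S48, S50, S53 or S55 (adjusted p up to 0.0617, without S55). Lrp2, the endocytic receptor megalin, read 1.09, 0.744, 0.517 and 1.15 CPM against 4.91, 7, 4.57 and 7.41 CPM and was 1 of the 12 largest rises among called protein-coding genes of at least 1 CPM (2.80, SE 0.38, adjusted p = 0.000861).

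Some genes of cholesterol synthesis were called higher in refed LKO livers, and 1 library of each group stood apart from the rest. The pathway runs from acetyl-CoA through mevalonate to squalene and then through the sterol ring to cholesterol, and its genes are driven by SREBP2. Of 20 genes, 7 were called higher and 0 lower, 19 had a positive log2 fold change, and the median was 1.51. The 2 groups overlapped in every member. The control S49 stood 0.48 above the mean of the 8 libraries and the LKO library S52 stood 0.11 below it, on the mean log2(CPM + 1) of the 20 genes. The other 3 controls were at -0.91, -1.19 and -1.34, and the other 3 LKO libraries at 1.34, 0.71 and 1.03. S49 also had the highest summed level of 11 Kupffer cell markers, 1036 CPM against 305 to 718 CPM in the other 7 libraries. The part of that difference in the cholesterol result was not tested. The number of called members was 19 without S49 and 14 without S52, but 0 without S48, 1 without S50, S51, S53 or S55, and 3 without S54. The median stayed between 1.21 (without S53) and 2.18 (without S49).

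Promoter sequences of this pathway are shown for Hmgcs1, the cytosolic HMG-CoA synthase, and Mvk, mevalonate kinase, because 19 of the 20 members were positive and SREBP2 is known to bind sterol response elements beside CCAAT boxes. They are the 250 bases before the annotated start, on the gene's strand, from RefSeq (GRCm38.p6); 15 of the 20 genes had a promoter in that table. Capitals in the Hmgcs1 line (chr13:119690101-119690350, plus strand) mark a match to the sterol response element letters TCACNCCAC. Capitals in the Mvk line (chr5:114444019-114444268, plus strand) mark CCAAT boxes, searched as ATTGG and CCAAT.
Hmgcs1: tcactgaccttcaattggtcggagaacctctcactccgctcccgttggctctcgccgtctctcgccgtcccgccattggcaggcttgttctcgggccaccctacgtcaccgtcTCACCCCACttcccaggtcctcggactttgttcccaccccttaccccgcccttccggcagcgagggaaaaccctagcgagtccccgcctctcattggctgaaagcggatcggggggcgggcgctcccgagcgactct
Mvk: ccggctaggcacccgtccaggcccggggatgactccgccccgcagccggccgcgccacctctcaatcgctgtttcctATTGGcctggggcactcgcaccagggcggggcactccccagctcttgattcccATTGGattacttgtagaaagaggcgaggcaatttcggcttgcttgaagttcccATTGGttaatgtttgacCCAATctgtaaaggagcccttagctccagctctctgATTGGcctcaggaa
The sterol element letters, on either strand, were in 1 of the 15 cholesterol promoters and in 138 of 10550 tested genes with a promoter (1.31%). A CCAAT box was in 14 of the 15 and in 4266 of the 10550 (40.4%). Mvk held 5 of them and Hmgcs1 held the sterol element once. A match describes letters in the window and not a bound site, and 1 of the 10550 had a sterol element that shared bases with a CCAAT box.

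Hmgcs1 (chromosome 13, 120151915 to 120169796, mm39) read 47.7, 142, 53 and 43.4 CPM in controls and 122, 490, 284 and 375 CPM in LKO. Only the control S49 reached the range of the LKO libraries (2.15, SE 0.44, adjusted p = 0.0143), and the call was lost without S48 (adjusted p = 0.0547). Mvk read 14.4, 35.6, 10 and 11.4 CPM against 26, 84, 47 and 63 CPM, with S49 above S52 (1.62, SE 0.39, adjusted p = 0.0307). In the ring arm, Sqle, squalene epoxidase, read 5.62, 40.5, 2.59 and 3.73 CPM against 25.4, 130, 82.6 and 89.6 CPM. S49 again read above S52 (2.64, SE 0.69, adjusted p = 0.044). The calls of Mvk and Sqle were lost without S48, S50, S51, S53, S54 or S55, with adjusted p values of up to 0.0983 (Mvk, without S53) and 0.124 (Sqle, without S48). Lss (1.34) and Dhcr7 (1.56), enzymes of ring closure and of the last reduction, lost theirs without S48, S50, S51, S53 or S55, with up to 0.0931 (Lss, without S55) and 0.0908 (Dhcr7, without S53).

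Of 16 genes of SREBP2 control and other sterol-regulated genes, 1 was called higher and 0 lower, with a median of 0.27. It was Tmem97, a sterol-regulated membrane protein, at 53.4, 73.6, 55.1 and 71.1 CPM in controls and 78.4, 132, 107 and 103 CPM in LKO. Its groups did not overlap (0.73, SE 0.14, adjusted p = 0.0114), and it was called in all 8 fits that left out a library. Srebf2, which encodes SREBP2, was not called (0.44, SE 0.20, adjusted p = 0.242), but it was without S49 (0.70, adjusted p = 0.0439). Of 16 bile acid synthesis genes, 1 was called lower. It was Cyp2c70, which makes muricholic acids, with -1.45 (SE 0.33, adjusted p = 0.0224), and it lost its call without S48 (0.0738), S54 (0.0553) or S55 (0.0753). Cyp7a1, the rate-limiting enzyme of bile acid synthesis, read 89.7, 124, 21.1 and 93.8 CPM against 48.8, 45.8, 44.1 and 67.7 CPM and was not called (-0.67, SE 0.47, adjusted p = 0.48).

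**Figure D3:**
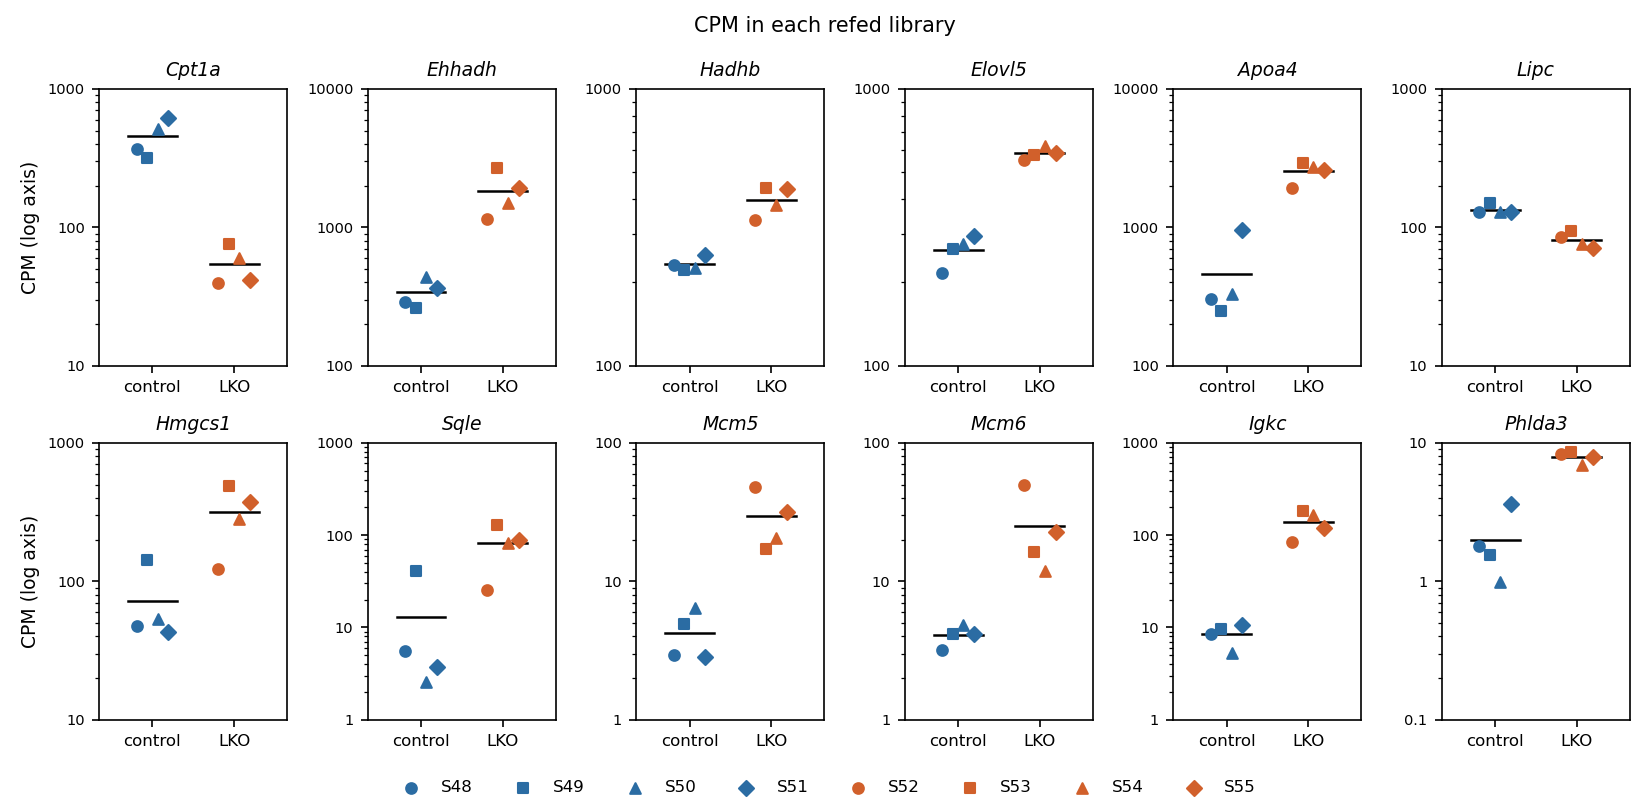
CPM of 12 genes in each refed library, on a log axis that differs between panels, with controls in blue, LKO in orange, 1 marker shape per library and a black line at the mean of each group (n = 4). The groups do not overlap except for Hmgcs1 and Sqle, where the control S49 (square) reads above the LKO library S52 (circle).

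Among the pathway lists, DNA replication had the largest share of members called. Replication starts when ORC, CDC6 and CDT1 load the MCM2 to MCM7 helicase onto origins, and E2F factors drive these genes as cells enter S phase. Of 37 tested genes, 25 were called higher and 0 lower, 36 were positive, and the median was 1.18. In 28 of the 37 the LKO values lay entirely above the controls, against 6.7% of all genes. Without single libraries the count of called members was 19 to 26. On the mean log2(CPM + 1) of the list, controls stood at -0.57, -0.48, -0.38 and -0.53 from the mean of the 8 libraries. The LKO library S52 stood at 1.08, S55 at 0.54, and S53 and S54 at 0.16 and 0.19. S52 was thus the highest LKO library for replication genes and the lowest for cholesterol synthesis genes. In bulk tissue, more cells of a kind and more RNA per cell cannot be told apart.

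Promoters are printed here for Mcm5 and Mcm6, helicase subunits with E2F-like letters and some of the larger rises in the list. They are the 250 bases before the annotated start (RefSeq, GRCm38.p6), on the gene's strand. Capitals mark the E2F-like letters TTTGGCGC on either strand (GCGCCAAA on the other). Mcm5 lies at chr8:75109259-75109508 (plus strand) and Mcm6 at chr1:128359706-128359955 (minus strand).
Mcm5: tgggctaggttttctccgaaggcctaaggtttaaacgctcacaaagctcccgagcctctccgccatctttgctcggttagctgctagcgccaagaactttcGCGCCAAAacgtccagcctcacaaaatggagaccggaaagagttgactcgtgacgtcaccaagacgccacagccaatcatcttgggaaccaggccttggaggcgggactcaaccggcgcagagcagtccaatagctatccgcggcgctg
Mcm6: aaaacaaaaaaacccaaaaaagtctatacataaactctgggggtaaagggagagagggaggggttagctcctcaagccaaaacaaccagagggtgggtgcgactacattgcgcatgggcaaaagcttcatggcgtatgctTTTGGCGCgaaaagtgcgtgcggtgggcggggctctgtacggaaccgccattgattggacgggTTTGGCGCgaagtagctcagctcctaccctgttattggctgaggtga
These letters were in 3 of the 30 replication promoters in the table (Mcm5, Mcm6 and Pola1), and in 96 of the 10550 tested genes with a promoter (0.91%). They were in 0 of the 15 cholesterol promoters, and the sterol element was in 0 of the 30 replication promoters. Cdc6 and Uhrf1, with larger log2 fold changes (3.39 and 3.12), did not hold the E2F-like letters. Pola1, which held them, was not called by edgeR (0.90, adjusted p = 0.152). CCAAT boxes were in 18 of the 30. In 1 of the 10550 an E2F-like match shared bases with a CCAAT box.

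Mcm5 (chromosome 8, 75836197 to 75855067, mm39) read 2.94, 4.89, 6.37 and 2.85 CPM in controls and 48.2, 17.1, 20.5 and 31.9 CPM in LKO. Every LKO library was above every control, S52 the most (2.76, SE 0.36, adjusted p = 0.000702). Mcm6 read 3.19, 4.14, 4.86 and 4.14 CPM against 49.9, 16.2, 11.9 and 22.8 CPM (2.62, SE 0.37, adjusted p = 0.00116). The other helicase subunits Mcm2, Mcm3, Mcm4 and Mcm7 had log2 fold changes of 1.92, 1.81, 1.68 and 1.28. Among the loading factors, Cdt1 read 2.11, 2.02, 4.66 and 2.72 CPM against 21.5, 6.87, 8.78 and 13.5 CPM (2.11, SE 0.42, adjusted p = 0.0113). Cdc6 was near the limit of detection in controls, at 0.128, 0.372, 0.358 and 0.0679 CPM, and read 5.07, 1.18, 1.79 and 2.56 CPM in LKO (3.39, SE 0.57, adjusted p = 0.00427). Rfc2, a subunit of the clamp loader that was named for its small p and is not in the list, read 24.1, 26.8, 26.1 and 25.7 CPM against 46.9, 42.1, 36.6 and 40.8 CPM (0.70, SE 0.08, adjusted p = 0.000231). Uhrf1, which guides maintenance DNA methylation, read 0.447, 1.49, 1.51 and 1.22 CPM against 21, 3.73, 6.92 and 9.96 CPM (3.12, SE 0.44, adjusted p = 0.00103). Chek1, the replication checkpoint kinase, Hells, a chromatin remodeller, and Fignl1, a recombination factor, had 3.23, 2.65 and 2.89. These 3 were among the 12 largest rises of called protein-coding genes of at least 1 CPM and are not in the list. All genes named in this paragraph were called in each of the 8 fits that left out a library.

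Genes of other parts of the cell cycle were counted in 2 further lists. Of 20 genes of cyclins, E2F and control of S phase entry, 2 were called higher. E2f1, the transcription factor, read 5.49, 5.31, 4.54 and 4.55 CPM against 21.4, 7.78, 10.8 and 13 CPM (1.42, SE 0.28, adjusted p = 0.012). Of 19 mitosis genes, 3 were called higher and 0 lower, with a median of 0.53. They were Top2a (2.17), Cdk1 (1.93) and Cdca8 (1.60), all at 6.04 CPM or less in every library and all highest in S52. Cdk1 lost its call without S48, S49, S50, S52 or S55 (adjusted p up to 0.127, without S52), Top2a without S48, S50, S51, S52 or S55 (up to 0.0915, without S48), and Cdca8 without S48, S49, S50, S52, S53 or S55 (up to 0.0833, without S48). Mki67, the proliferation marker, read 1.02, 0.956, 0.796 and 0.815 CPM in controls and 1.64, 0.981, 0.865 and 0.866 CPM in LKO and was not called (0.28, SE 0.41, adjusted p = 0.774).

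Genes induced by p53 moved in part. Of 15, 4 were called higher and 0 lower, 14 were positive, and the median was 0.50. Phlda3, an inhibitor of AKT signalling (chromosome 1, 135693857 to 135696874), read 1.79, 1.54, 0.995 and 3.6 CPM against 8.39, 8.57, 6.92 and 7.97 CPM (2.05, SE 0.38, adjusted p = 0.00819). Eda2r, a receptor for ectodysplasin, read 0.0639, 0, 0.0796 and 0.272 CPM against 1.53, 1.31, 1.3 and 1.56 CPM (3.81, SE 0.53, adjusted p = 0.00103). Its controls were near the limit of detection (1 count was worth 0.0398 to 0.0679 CPM), so the size of its fold is uncertain. Ccng1 (0.74) lost its call without S48, S50, S52 or S55 (adjusted p up to 0.0786, without S48), and Plk2 (0.87) without each library except S53 (up to 0.0865, without S50). Mdm2, the ubiquitin ligase of p53, read 21.7 ± 4.55 CPM and 28.9 ± 6.14 CPM (n = 4 each, 0.42, SE 0.17, adjusted p = 0.183). Cdkn1a, the cell cycle inhibitor p21, read 15.8, 34.4, 4.98 and 9.57 CPM against 63.9, 27.4, 29.6 and 29.2 CPM, with S49 inside the LKO range (1.22, SE 0.60, adjusted p = 0.293).

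Immunoglobulin genes of plasma cells differed by large folds. Plasma cells secrete antibody, and their mRNA is dominated by immunoglobulin constant and variable chains. Of 14 tested plasma cell markers, 8 were called higher and 1 lower, 10 were positive and 4 negative, and the median was 2.01. Igkc, the κ light chain constant region (chromosome 6, 70703419 to 70703950), read 8.5, 9.51, 5.25 and 10.7 CPM in controls and 85, 183, 167 and 118 CPM in LKO. The lowest LKO library was far above the highest control (4.04, SE 0.46, adjusted p = 0.000225). Jchain, which joins IgA and IgM into polymers, read 2.17, 2.23, 0.796 and 1.49 CPM against 12.3, 27.9, 31.6 and 23.5 CPM (3.86, SE 0.45, adjusted p = 0.000231). Ighg2c, an IgG heavy chain, read 1.21, 0.69, 0.318 and 0.475 CPM against 65.9, 126, 110 and 55 CPM (7.10, SE 0.70, adjusted p = 0.000139). Igha, the IgA heavy chain, read 3.58, 2.18, 0.716 and 1.97 CPM against 16, 57.5, 49.6 and 50.2 CPM (4.41, SE 0.60, adjusted p = 0.000934). The member called lower was Derl3, a protein of ER-associated degradation, at 41.8, 5.26, 21.7 and 55.1 CPM against 3.22, 3.73, 4.26 and 6.06 CPM, with S49 inside the LKO range (-2.82, SE 0.52, adjusted p = 0.00699). By biotype, 18 of 25 tested immunoglobulin genes were called higher and 0 lower, all 25 were positive, and the median was 4.47. Immunoglobulin genes are near-identical copies in many cases, so the split between members is uncertain.

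Among the other plasma cell markers, Sdc1, a surface proteoglycan shared with hepatocytes, was not called (-0.30, SE 0.18, adjusted p = 0.389). A further 4 markers were under the filter and were not tested. Of these, Mzb1, a chaperone of antibody secretion, read 0.128, 0, 0.0398 and 0 CPM in controls and 0.256, 0.523, 0.309 and 0.433 CPM in LKO, and Irf4, a transcription factor of plasma cells, read 0.128, 0.106, 0.119 and 0.136 CPM against 0.205, 0.523, 0.247 and 0.39 CPM. Both were at a few counts per library and did not overlap between the groups. Of the others, Prdm1 overlapped and had the lower mean in LKO, at 0.396 CPM in controls and 0.312 CPM in LKO. Tnfrsf17 had means of 0.016 CPM in controls and 0.0282 CPM in LKO. None of 8 B cell markers was called, with summed levels of 6.58 to 9.77 CPM in controls and 8.65 to 11.8 CPM in LKO. None of 9 T and NK cell markers was called, although 8 were positive, with a median of 0.94 and summed levels of 3.33 to 7.01 CPM in controls and 8.03 to 12.3 CPM in LKO. All 11 Kupffer cell markers had negative log2 fold changes, with a median of -0.60, and none was called. Their summed level was 305 to 1036 CPM in controls and 322 to 465 CPM in LKO. Of 5 tested adipocyte markers none was called and 4 were negative, with a median of -1.25. Most of their sum was Car3, a carbonic anhydrase also made in liver, at 5351, 4818, 3882 and 4584 CPM against 2407, 1999, 1911 and 1511 CPM (-1.25, SE 0.47, adjusted p = 0.157). The Car3 groups did not overlap, and edgeR fitted to the 8 refed libraries alone called Car3 lower (adjusted p = 0.0032). The defining marker Adipoq was at 0 in 7 of the 8 libraries. Of 11 pancreatic acinar markers 1 could be tested, Cela1, an elastase, which was called lower (-0.98, SE 0.17, adjusted p = 0.00448). Another 5 were under the filter, each at a mean under 0.19 CPM in both groups, and 5 were not found in the deposited counts. The Cela1 call is therefore a result for 1 gene and not for a cell type. The part of cell composition in the other results was not tested.

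**Figure D4:**
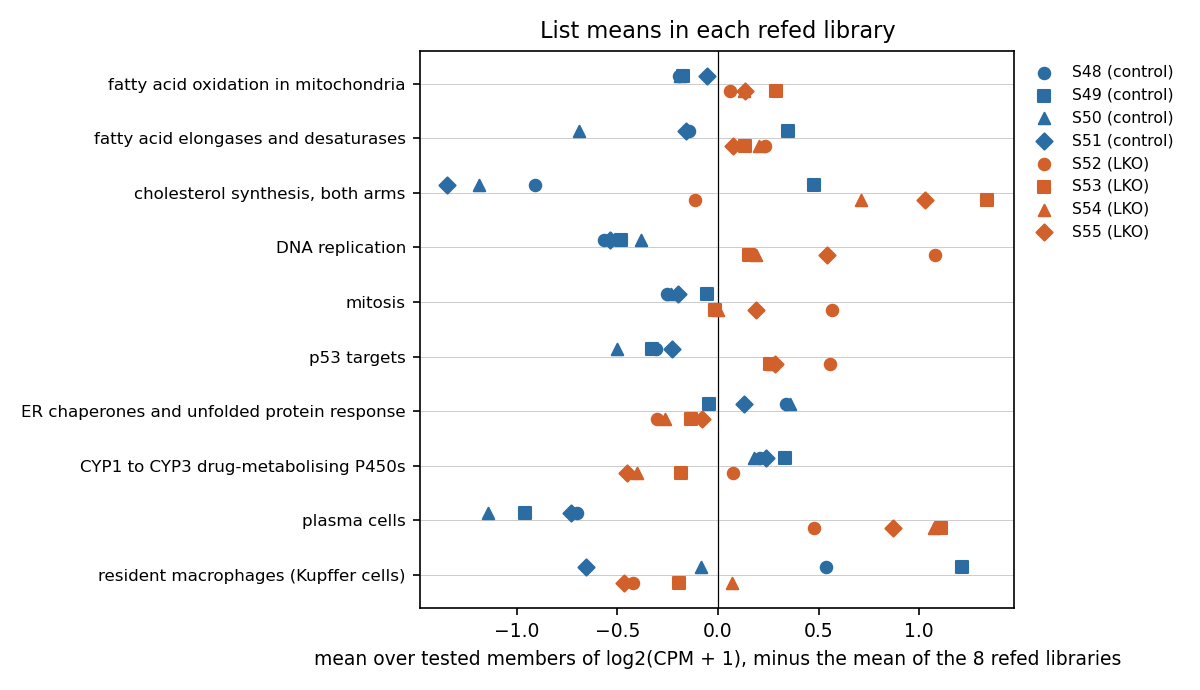
Each marker is 1 refed library (controls blue, LKO orange, 1 shape per library), placed at the mean of log2(CPM + 1) over the tested members of a list minus the mean of the 8 libraries. For DNA replication and plasma cells the 4 LKO libraries lie above all controls; for cholesterol synthesis the control S49 (0.48) lies above the LKO library S52 (-0.11).

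Of 16 genes of the unfolded protein response and ER folding, 6 were called lower and 0 higher, 15 were negative, and the median was -0.45. The other 10 did not pass. Dnajc3, a co-chaperone and inhibitor of the kinase PERK, read 296, 217, 278 and 263 CPM against 181, 162, 156 and 189 CPM (-0.61, SE 0.11, adjusted p = 0.00517). Edem1, which marks misfolded glycoproteins for breakdown, read 154, 142, 147 and 143 CPM against 112, 88.6, 83.6 and 95.8 CPM (-0.62, SE 0.12, adjusted p = 0.00996). Dnajb11, a co-chaperone of BiP, read 203, 163, 169 and 168 CPM against 120, 125, 126 and 127 CPM (-0.50, SE 0.10, adjusted p = 0.0109). These 3 were called in each fit that left out a library, and the list count was 3 without S48, S53 or S54. The other 3 were Sdf2l1 (-1.01, adjusted p = 0.0214), Pdia6 (-0.68, adjusted p = 0.0223) and Calr (-0.51, adjusted p = 0.0380). Sdf2l1 lost its call without S48, S52, S53 or S54 (adjusted p up to 0.077, without S48). Pdia6 lost it without S48, S53, S54 or S55 (up to 0.0801, without S48). Calr kept its call only without S49 (up to 0.119, without S48). Hspa5, which encodes BiP itself, read 1092, 861, 1208 and 890 CPM against 686, 812, 765 and 871 CPM and was not called (-0.37, SE 0.22, adjusted p = 0.388).

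Of 21 P450 genes of families CYP1 to CYP3, which oxidise drugs and steroids, 6 were called lower and 0 higher, with a median of -0.34. The other 15 did not pass, and 3 members were positive (up to 0.70). Of 12 hepatocyte markers, 10 were also negative (median -0.20), and their part in these falls was not tested. Cyp2c29 read 1229, 1416, 844 and 655 CPM against 564, 318, 204 and 208 CPM (-1.68, SE 0.34, adjusted p = 0.0136), and Cyp2c50 read 907, 953, 829 and 721 CPM against 490, 481, 300 and 296 CPM (-1.12, SE 0.21, adjusted p = 0.00721). Neither pair of groups overlapped. The list count fell to 3 without S48 or S50 and to 2 without S54 or S55. Cyp2c genes are close copies of each other and reads may be divided among them. Among named falls outside the lists, Rcan2, a regulator of calcineurin (chromosome 17, 44112242 to 44350407), read 11.8, 10.6, 10.4 and 14 CPM against 2.87, 1.5, 2.35 and 1.08 CPM (-2.58, SE 0.36, adjusted p = 0.000983). Slc1a2, a glutamate transporter, read 118, 144, 143 and 134 CPM against 85.7, 74.6, 79.5 and 66.1 CPM (-0.82, SE 0.11, adjusted p = 0.00103). Sult1d1, a sulfotransferase, read 69.3, 117, 81.7 and 75.1 CPM against 38.2, 31.4, 32.2 and 30.3 CPM (-1.38, SE 0.21, adjusted p = 0.00207). Gna14, a G protein α subunit, read 5.88, 4.09, 6.49 and 6.58 CPM against 2.1, 0.85, 0.68 and 0.823 CPM (-2.35, SE 0.40, adjusted p = 0.00455). All 4 genes fell without overlap. Adam11, a membrane protein of the ADAM family, read 28.1, 5.52, 17.8 and 21.2 CPM against 3.27, 1.9, 3.09 and 2.6 CPM and also did not overlap (-2.73, SE 0.45, adjusted p = 0.00369). Cyp2b13, Gstt3 and Car14 were also among the 12 largest falls of called protein-coding genes of at least 1 CPM (-4.42, -2.20 and -2.04) and lost their calls without S48, S53, S54 or S55 among others (adjusted p up to 0.0963, 0.0738 and 0.102, each without S55). The largest falls included members of the major urinary protein cluster, whose copies are too alike to tell apart, and Mup18 (-3.56, adjusted p = 0.0498) lost its call in all 8 fits that left out a library (adjusted p from 0.0585 without S52 to 0.138 without S55).

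Several genes outside these themes rose without overlap. Lamb3, a laminin chain, read 16.6, 15.7, 18.3 and 33.3 CPM against 81.9, 99.9, 84.5 and 64.9 CPM (1.99, SE 0.22, adjusted p = 0.000208). Cplane1, a planar cell polarity and cilia gene (chromosome 15, 8198590 to 8300642), read 4.02, 2.92, 4.38 and 4.48 CPM against 12.2, 9.68, 12.7 and 14.7 CPM (1.64, SE 0.17, adjusted p = 0.000194). Fam83a, a scaffold protein of epidermal growth factor signalling, read 1.98, 0.159, 1.47 and 4.48 CPM against 18, 15.4, 15.8 and 16.8 CPM (3.09, SE 0.61, adjusted p = 0.0115). Pkp1, a desmosome plaque protein, read 0, 0.212, 0.318 and 0.95 CPM against 1.74, 1.96, 4.14 and 3.64 CPM (2.99, SE 0.58, adjusted p = 0.00985). Control values of Pkp1 reached down to 0, so the size of its fold is uncertain. Meg3 and Rian, noncoding RNAs of the imprinted Dlk1-Dio3 region that sit beside each other on chromosome 12, belonged to a list of 12 tested fetal liver and progenitor genes, of which they were the 2 called. Meg3 read 1.85, 0.637, 0.836 and 1.56 CPM against 12.2, 16.8, 5.81 and 21.1 CPM (3.57, SE 0.44, adjusted p = 0.000412), and Rian read 0.256, 0.212, 0.318 and 0 CPM against 5.37, 4.71, 1.54 and 9.57 CPM (4.62, SE 0.65, adjusted p = 0.00103). S54 was the lowest LKO library and S55 the highest for both. Control values of Rian were near the limit of detection, so the size of its fold is uncertain. Of 13 heat shock genes, 1 was called, Hspb1, a small heat shock protein, at 62.4, 37.8, 52.1 and 52.6 CPM against 100, 118, 119 and 123 CPM (1.17, SE 0.22, adjusted p = 0.00904). No gene was called in the lists for acute phase proteins (20 tested, median -0.45), NRF2 targets (15), the circadian clock (18), insulin signalling and FOXO targets (12), the growth hormone axis (11), collagen and matrix (20), or biliary transport (14). Of the acute phase genes 18 were negative and 2 positive, with 8 at an unadjusted p under 0.05. Of the insulin and FOXO genes 11 were negative and 1 positive (median -0.25), with 3 at an unadjusted p under 0.05. The mean log2(CPM + 1) of that list stood at 0.10 to 0.19 in controls and -0.19 to -0.03 in LKO, from the mean of the 8 libraries.

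The genotype effect was set beside that in the fasted livers, which shared no library with the refed ones. The test of the difference between the 2 effects called 78 genes (0.538%), 19 of them among the 526. That count was 9 without S48, 16 without S50, 43 without S52, 35 without S53, 37 without S54, 18 without S55 and 295 without S49. Of the 219 genes called in both states, 217 moved in the same direction. The exceptions were Pold2, a DNA polymerase δ subunit (0.50 refed, -0.63 fasted), and Ccng2, an atypical cyclin linked to cell cycle arrest (-0.75 refed, 0.69 fasted), and the difference was called for both (adjusted p = 0.0194 each). These 2 were named after their values were seen. Of the 8 fits that left out a refed library, Pold2 was called refed in 2 (adjusted p up to 0.138). Ccng2 was called in 4 of those fits (adjusted p up to 0.0882). For the 37 replication genes the fasted median was 0.00, with 0 called higher and 1 lower. The difference was called for 5 of them, Mcm6 (2.62 refed against -0.02 fasted, adjusted p of the difference = 0.0438), Rpa2 (1.23 against -0.12, 0.0294), Chaf1a (1.80 against -0.42, 0.0327), Chaf1b (2.36 against -0.26, 0.0334) and Gins1 (1.12 against -0.41, 0.0194), and for E2f1 (1.42 against -0.80, 0.0327). Rpa2 binds single-stranded DNA, Chaf1a and Chaf1b place histones on new DNA, and Gins1 is part of the replicative helicase. For Mcm5 it was not (2.76 against 0.72, 0.0854). For the 20 cholesterol genes the fasted median was 0.03, 1 was called higher when fasted, and the difference was called for 0 of them (Hmgcs1 2.15 against 0.60, 0.202). Igkc and Jchain were called higher in both states, with Igkc at 4.04 refed and 3.33 fasted and Jchain at 3.86 and 3.35, and neither difference was called. Cpt1a itself fell by 3.08 refed and 2.28 fasted on the log2 scale (difference -0.80, SE 0.31, adjusted p = 0.206).

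**Figure D5:**
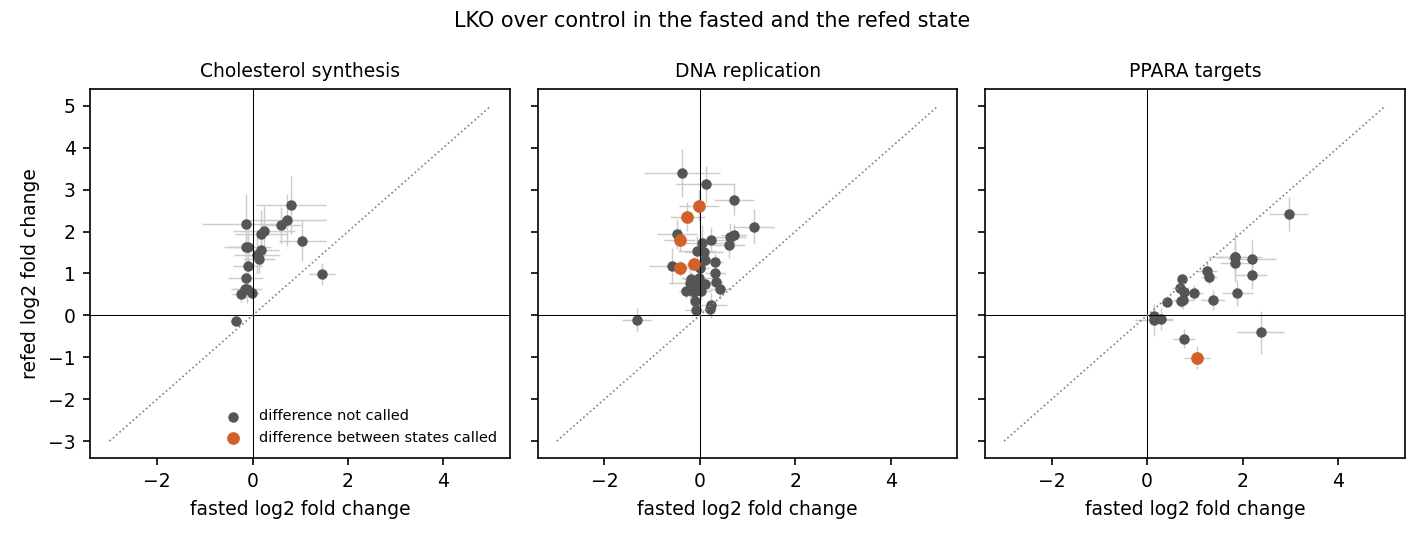
Log2 fold change of LKO over control in fasted (x axis) and refed (y axis) livers for tested members of 3 lists, with bars of 1 SE and a dotted line where both are equal. Orange points mark genes whose difference between the states was called; 5 replication genes lie above the line near 0 on the x axis, and 1 PPARA target (Acot3) lies below 0 on the y axis.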

How the data were processed

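Poly(A) RNA from mouse liver was sequenced from dUTP-marked libraries, per the labels' protocols. Reads were aligned by the authors with HISAT2 2.0.5 to mm39, per the submitters' processing notes, and whole-number counts per gene were deposited in 4 tables; the counter, the annotation release and whether strand was used are not given in the sources used here. The refed table also holds the authors' deposited log2 fold changes and adjusted p-values, of which 1 gene's value is printed; their signs were turned to LKO over control. The 64 other per-library columns were not used.

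The columns of each library (S40 to S55) name no sample, so libraries were assigned to groups by the group headings of the tables that hold them, with no replicate number. Counts of the 16 libraries were joined over 25803 genes and 14488 passed edgeR's filterByExpr over the 4 groups. edgeR 4.0.16 (TMM scaling, quasi-likelihood test; R 4.3.3) was fitted to all 16 libraries, so the 4 groups share one estimate of the spread, with contrasts for refed, fasted and their difference. P-values were adjusted by Benjamini-Hochberg over all genes, and the SE was taken from the fold change and its F statistic. The fit was tested on simulated counts, drawn for each gene alone from the fit's own estimates of spread. They held no shift shared by many genes of a library, so that test cannot speak to such shifts. Between libraries of a group, chi-square per degree of freedom was 15.5 to 79.4, against 1 for sampling noise alone. Totals were 14721601 to 24618230 counts in the refed libraries, and a count of 1 was worth 0.0398 to 0.0679 CPM.

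Gene lists (36 of pathways, 13 of cell markers) and the rule for named genes were chosen with earlier results of these data known. The rule named Cpt1a and, among called protein-coding genes of at least 1 CPM, predicted-gene names left out, the 12 largest rises and falls, the 5 smallest p in each direction and the 5 largest gains and losses in CPM; list members could be named beside their list's count. Alternatives were RLE and upper quartile scaling, DESeq2 1.42.0, limma-voom (limma 3.58.1), no filter, a mean of at least 5 CPM, the 8 refed libraries alone, and leaving out each refed library. Promoters came from RefSeq (GRCm38.p6) by symbol, and 10550 of the tested genes had one. Values of some genes of these lists are not reported here.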

Additional observations from a re-analysis of the deposited data

Results flagged for a closer look

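Among 246 groups of 4 libraries examined (the genes named, in controls and in LKO), 22 held 1 library far from the other 3 by Dixon's criterion. Chance flags about 1 in 20 groups when values are normal and groups independent. These groups are raw CPM of genes that share libraries, so that rate need not hold here, and an excess was not tested. The LKO library S52 accounted for 9 of the 22. It read high for Chaf1b (7.98 CPM), Gins1 (10.7 CPM), Ddias (4.3 CPM), Mki67 (1.64 CPM) and Cdkn1a (63.9 CPM), which include genes of replication and proliferation. It also stood above the other LKO libraries and below every control for Gna14 (2.1 CPM), Car14 (16.1 CPM) and Mup16 (81.9 CPM), and below the other LKO libraries for Pklr (125 CPM).

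The control S49 stood above the other controls for Hmgcs1 (142 CPM), Sqle (40.5 CPM), Pklr (367 CPM) and Lipc (149 CPM). Hmgcs1 and Sqle belong to cholesterol synthesis. The control S51 stood above the others for Apoa4 (949 CPM), Plin4 (69.9 CPM), Lamb3 (33.3 CPM), Cpt2 (244 CPM) and Cdca8 (0.95 CPM). S48 stood above the other controls for Dnajb11 (203 CPM), Psmb8 (39.9 CPM) and Plk2 (8.43 CPM), and S53 above the other LKO libraries for Mlxipl (186 CPM).

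The genotype effect differed between the refed and the fasted livers, by the interaction term of the edgeR fit, for 12 named genes. Among all 14488 genes tested it differed for 78 (0.538%). Chaf1a, Chaf1b, Gins1, Rpa2 and Acot3 were named for that difference, and Pold2, Ccng2 and Psmb9 after their values were seen. The count of 12 is therefore set in part by the choice of names. The refed minus fasted difference in log2 fold change was 2.64 for Mcm6, 2.62 for Chaf1b, 2.22 for Chaf1a, 2.21 for E2f1, 1.54 for Gins1, 1.35 for Rpa2, 1.13 for Pold2 and 0.54 for Rfc2, which all act in DNA replication or drive its genes. It was 1.24 for Cplane1, 0.90 for Psmb9, -1.44 for Ccng2 and -2.05 for Acot3. Leaving out S48 left 9 genes with a called difference in all.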

How the results depend on the processing

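Under RLE and upper quartile scaling each count reported stayed within 1.5 times its value, and so did the count of refed calls with limma-voom, without the filter, at 5 CPM or more and with the 8 refed libraries alone. A similar count did not mean the same genes. The fit of the 8 refed libraries alone shared 318 of the 526 calls. DESeq2 called 924 genes refed (556 higher, 368 lower) and 467 for the difference between states. Asking also for a 2-fold change left 209 refed calls (151 and 58), 404 fasted, 35 for the difference, 0 of mitochondrial fatty acid oxidation, 1 of the ER chaperones and 3 of the P450 genes. At 5 CPM or more the difference between states was called for 197 genes, and 15 replication genes were called of the 20 that could be tested. Of the 20 cholesterol synthesis genes 13 were called with DESeq2, 13 with limma-voom and 1 with the 8 refed libraries alone, which also gave 3 P450 calls.

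Leaving out 1 refed library gave 190 to 518 refed calls (131 to 334 higher, 58 to 184 lower), 1626 to 1875 fasted, 9 to 295 for the difference, 0 to 19 of the cholesterol genes, 19 to 26 of the replication genes, 4 to 6 of mitochondrial oxidation, 3 to 7 of the ER chaperones, 2 to 6 of the P450 genes and 7 to 9 of the plasma cell markers. Cpt1a kept its direction and call under each alternative run, between -3.27 and -2.89 when 1 library was left out. Those fits hold fewer libraries; otherwise the cause of each change was not tested. Of the 526 calls, 185 were also made without S48 and 378 without S51. Among the named genes limma-voom did not call Adam11 (0.0504), Cdk1 (0.0781), Cyp2b13 (0.0883), Derl3 (0.0685), Mup18 (0.0654), Mup9 (0.268), Pklr (0.0504) and Top2a (0.0547), with its adjusted p in parentheses. The edgeR fit of the 8 refed libraries alone, by its adjusted p, did not call Ccng2 (0.0659), Cdca8 (0.0623), Cdk1 (0.0919), Dhcr7 (0.0901), Khk (0.0706) and Lss (0.0966). It also did not call Mup9 (0.0731), Mvk (0.0785), Pklr (0.0757), Pold2 (0.0791), Sqle (0.111) and Top2a (0.0625). That fit did call Car3 (0.0032) and Acot3 (0.041) lower, which the main fit did not call. No paired analysis was possible because the count columns carry no replicate numbers.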

Other observations

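Of 22 interferon-stimulated genes tested, 3 were called higher in refed LKO and 0 lower, 20 were positive, and the median log2 fold change was 0.41. The 3 called were Ifi44, with 2.17, 1.49, 3.58 and 3.12 CPM in controls and 7.01, 5.1, 7.72 and 8.53 CPM in LKO (1.45, SE 0.36, adjusted p = 0.0348), Usp18, a protease that removes ISG15 (0.85, SE 0.21, adjusted p = 0.0383), and Irf7, a transcription factor of the interferon response (0.46, SE 0.12, adjusted p = 0.0493). The adjusted p over fits without 1 refed library was 0.0435 to 0.1 for Ifi44, 0.0244 to 0.112 for Usp18 and 0.0528 to 0.133 for Irf7. Psmb9, an immunoproteasome subunit, read 24.2, 20.7, 20 and 25 CPM in controls and 52.4, 57.4, 42.6 and 47.4 CPM in LKO, without overlap (1.15, SE 0.13, adjusted p = 0.000231). Tap1, a peptide transporter of antigen presentation whose gene lies beside it, read 28.9, 22.6, 31 and 38.2 CPM and 53.4, 50, 51.5 and 43.1 CPM, without overlap (0.72, SE 0.13, adjusted p = 0.00575). Psmb8, another immunoproteasome subunit, was not called (0.35, SE 0.16, adjusted p = 0.23). Psmb9, Tap1 and Psmb8 were chosen after their values were seen.

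Of 17 secreted liver hormones tested, Enho, which encodes adropin, was the 1 called. It read 6.64, 8.29, 8.24 and 6.58 CPM in controls and 11.7, 35.6, 23.4 and 49.2 CPM in LKO, without overlap (2.01, SE 0.41, adjusted p = 0.0142). Its adjusted p was 0.0515 without S48 and 0.0523 without S55.

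Other genes that the naming rule picked were Mup16 and Mup9, major urinary proteins, Cyp2a5, a P450, C3, the central complement component, and Ddias. Mup16 read 124, 212, 177 and 232 CPM in controls and 81.9, 35.2, 28.3 and 31.9 CPM in LKO (-2.07, SE 0.40, adjusted p = 0.00972). Mup9 read 54.7, 1.33, 10.4 and 14.7 CPM and 3.68, 1.7, 0.865 and 0.65 CPM, with overlap (-3.54, SE 0.86, adjusted p = 0.0331), and its adjusted p was 0.00839 to 0.13 over fits without 1 refed library. Counts of Mup genes are uncertain, because the family has near-identical copies. Cyp2a5 read 922, 1340, 1014 and 1119 CPM and 673, 418, 423 and 313 CPM (-1.27, SE 0.27, adjusted p = 0.0173), and its adjusted p was 0.0523, 0.0516 and 0.0647 without S53, S54 and S55. C3 read 5423, 5014, 5681 and 5073 CPM and 4086, 4027, 3771 and 4356 CPM (-0.38, SE 0.10, adjusted p = 0.0498), with 0.06 to 0.128 over the same fits. Ddias read 0.256, 0.0531, 0.398 and 0.815 CPM and 4.3, 1.44, 1.79 and 1.86 CPM (2.66, SE 0.55, adjusted p = 0.0153), with 0.056 without S48. The 0.0531 CPM of S49 was 1 count, so the size of this fold is uncertain.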
